A study of Mus musculus with 4 samples.

Results

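Solute carriers are the membrane proteins that move amino acids, sugars, lactate, ions, metals, choline and vitamins into and out of cells and organelles. They work by facilitated passage or by coupling to a gradient of sodium, protons or another ion. They are numbered in families by sequence similarity, and members of a family often share a substrate. In mammary tissue they feed growth and milk synthesis, and in tumours carriers for glutamine, glucose and lactate are known to accompany rapid growth. The members here were every row of the deposited tables whose symbol began with Slc or Slco followed by a digit and whose gene was annotated as protein-coding. That rule took 33 of 1142 listed genes, from 18 families. The symbols of 385 protein-coding genes in the GENCODE M21 annotation follow the same pattern, so 352 were not in the tables, and nothing is known here of their levels.

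The RNA came from 4 tumour samples. The miR-9 knockout group had 2 (knockouts 1 and 2), and the group without miR-9 knockout, littermates of mixed C57BL/6 background like the knockouts, had 2 (controls 1 and 2). All mice were female. All 4 samples came from MMTV-PyMT mice, which carry the polyoma virus middle T antigen under a mammary tumour virus promoter, so all 4 are transgene-driven tumours. The labels describe the allele as a knockout of miR-9 exon 1 and name heterozygous animals as its source, and they give neither the zygosity, the ages nor the number of animals behind the tumours. P-values therefore measure only the spread between these samples, which may be technical. Values are normalised reads: each sample's counts per gene were divided by a single factor. The listed genes held 694925 and 697334 reads in knockouts 1 and 2, against 512574 and 458335 reads in controls 1 and 2, and the members held 23494 and 24857 reads, against 17056 and 14282 reads in controls 1 and 2. No miR-9 gene was among the listed genes, so the knockout itself is not checked here. The luminal epithelial keratin Krt19 and the basal keratin Krt14, markers of mammary epithelium, had reads in all 4 samples. In bulk tumour RNA, fewer cells of a type and less RNA per cell cannot be told apart.

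The tables are a list chosen by the study on these samples: every listed gene differed 2-fold or more between group means, within rounding, so a call adds little. By limma, a linear model with a pooled estimate of spread, on log2(value + 1) and at a Benjamini-Hochberg adjusted p under 0.05 over the 1142 genes, all 33 carriers were called, where 99.8% of listed genes were. In the knockouts 19 carriers (57.6%) were higher and 14 (42.4%) lower, against 61.3% and 38.5% of all listed genes, and the directions of the carriers are thus near the background. The median log2 change was 1.13 over the 33 carriers and 1.23 over all listed genes. The lowest knockout and the highest control of a risen gene, or the reverse for a fallen one, lay apart in all 33, as in 99.9% of listed genes. In 24 of the 32 carriers with reads in every sample that gap was wider than the ratio within either group, and the same held for 76.1% of 1089 listed genes.

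**Figure D1:**
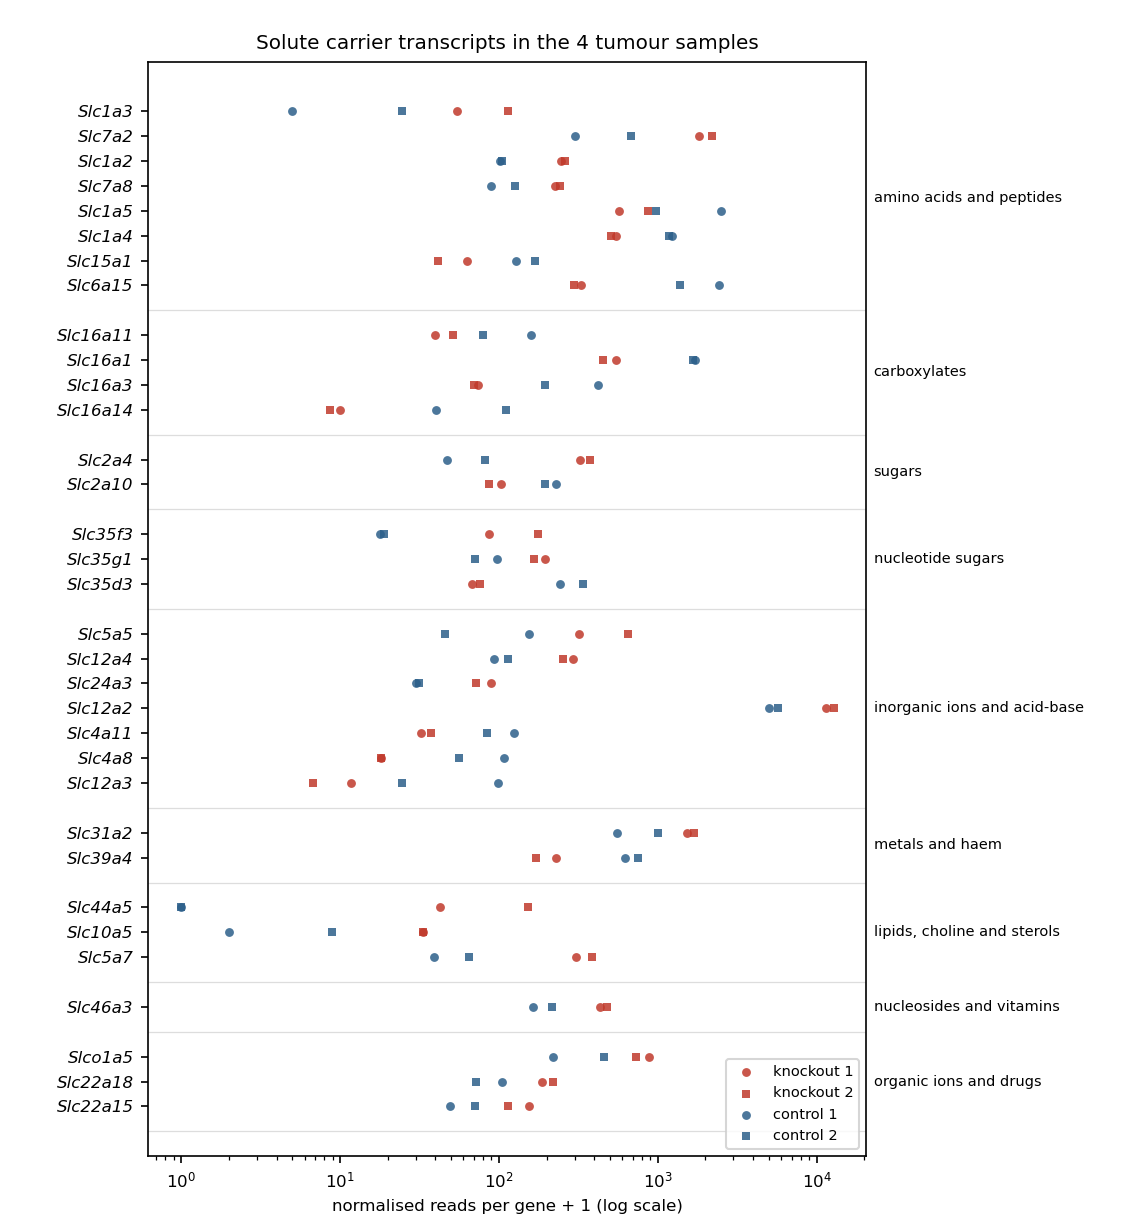
Normalised reads of each carrier, plus 1 and on a log scale, in knockout 1, knockout 2, control 1 and control 2, grouped by substrate class. Slc12a2 lies to the right of the others in every sample, and Slc44a5 is at 0 reads in both controls.

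The calls and the sizes of the changes depend on the size factors, and some rises all but vanish with other factors. Factors taken from the listed genes themselves moved the median over all 1142 genes, on the log2 scale, to 0.49 with TMM and to 0.14 with RLE, and that of the carriers to 0.40 and 0.046. No carrier changed sign, but with RLE Slc31a2 stood at 0.011 and Slc35g1 at 0.040, too near 0 to give a direction. All 14 that fell were still called lower under each of 4 such scalings. Of the 19 that rose, 5 were called under all 4: Slc44a5, Slc5a7, Slc35f3, Slc2a4 and Slc7a2. With TMM 5 carriers were called higher (15.2% of 33, against 24.3% of listed genes) and with RLE the same 5 (against 15.0%). Of the other 14 that rose, 7 kept their call with upper quartile factors and 8 with totals. The TMM and RLE factors come from a list chosen for change in which most genes rose. All 4 scalings lowered the log2 change of every carrier, by less where values are near 0. That shift moves fallers away from 0, so their kept calls are no test of them.

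The carriers' counts are to be read against how many listed genes each fit called. The 14 lower calls stood beside 38.4% of listed genes with TMM, RLE and upper quartile factors and 38.6% with totals, and the calls in either direction covered 62.7%, 53.3%, 84.2% and 88.7% of genes in that order of scalings. With upper quartile factors 12 carriers were higher (45.8% of listed genes) and with totals 13 (50.1%). Without control 1, 17 carriers were higher (54.6% of listed genes) and 11 lower (32.0%), 86.7% of genes being called. Without control 2, 18 were higher (58.2%) and 13 lower (35.5%), with 93.7% called. Without either knockout 1 carrier was higher (1.14% of listed genes) and none lower (0.0%). At an unadjusted p under 0.05, 7 carriers were higher (23.7% of listed genes) and 6 lower (15.9%) without knockout 1, and 5 higher (20.8%) and 4 lower (13.6%) without knockout 2. With all samples and an adjusted p under 0.01, 8 carriers were higher (33.9% of listed genes) and 8 lower (17.3%). The other fits, with another pseudocount or filter, the replicate numbers as a block, edgeR, limma-voom or DESeq2, kept all 33 calls and called 99.5%, 99.6%, 99.7%, 99.8%, 99.9% or 100.0% of listed genes, with 61.1%, 61.2% or 61.3% higher and 38.3%, 38.4%, 38.5% or 38.7% lower.

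**Figure D2:**
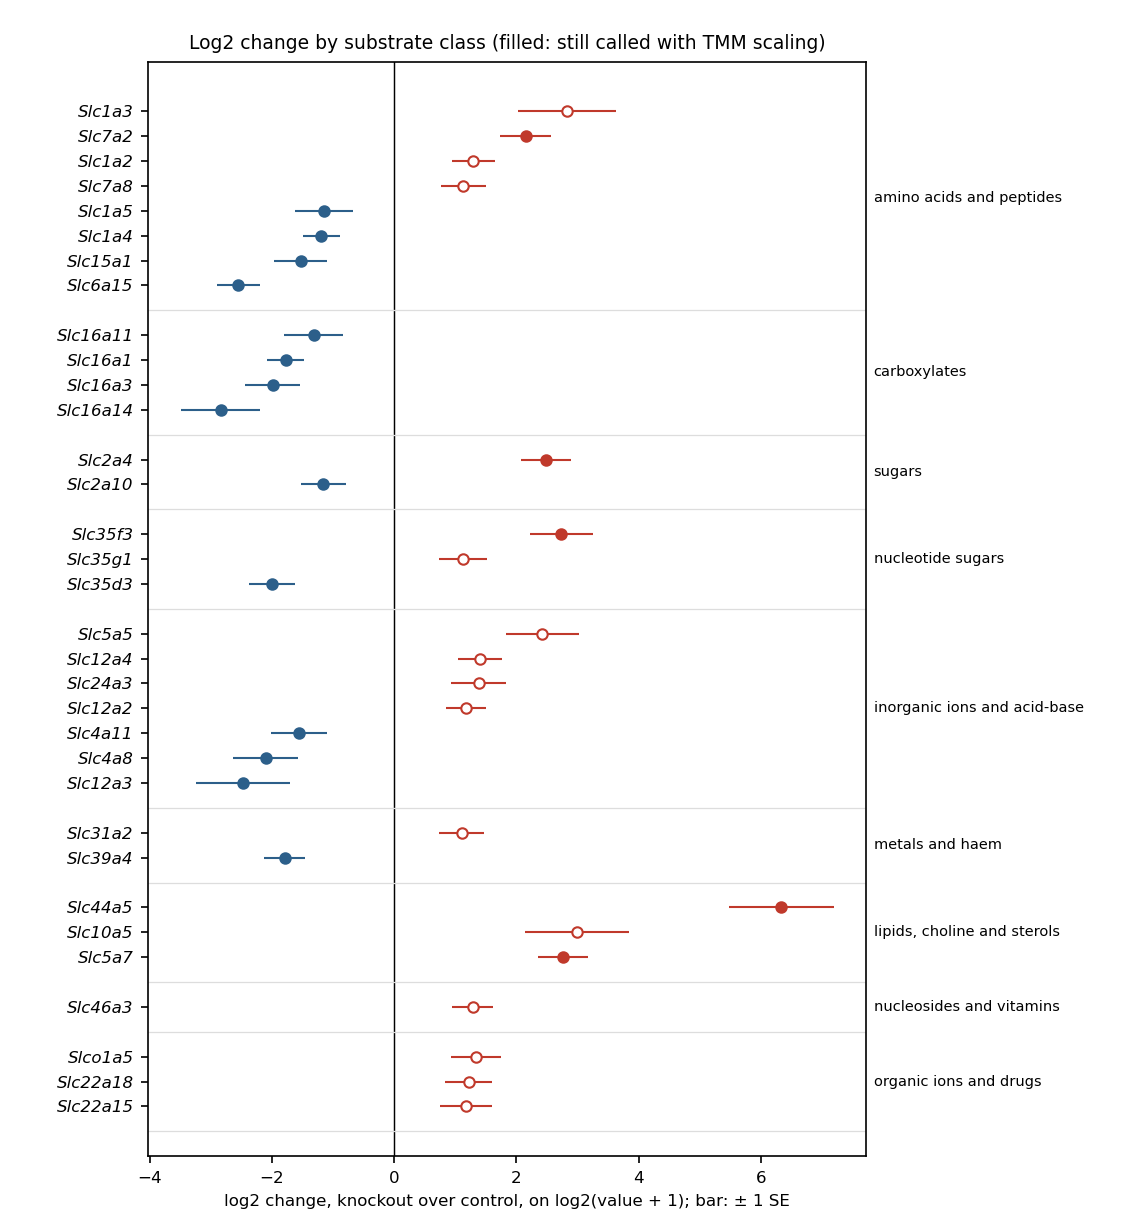
Log2 change of each carrier in knockout over control tumours, with bars of 1 SE, by substrate class. Filled points kept an adjusted p under 0.05 with TMM scaling: all 14 carriers that fell and 5 of the 19 that rose are filled. TMM lowered every log2 change, which moves fallers away from 0, so it does not test them.

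The listed monocarboxylate carriers of the Slc16 family all fell. Some proteins of the family, Slc16a1 and Slc16a3 among them, carry lactate with protons, and lactate made by glycolysis crosses the cell membrane through them. The same is not established here for the other listed members. The tables held 4 of the 14 annotated Slc16 genes, and all 4 were lower in knockout tumours, where 38.5% of all listed genes were. Slc16 is 1 of 18 families with a listed member. Their summed level was 664 and 577 normalised reads in knockouts 1 and 2, against 2341 and 2046 in controls 1 and 2.

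Slc16a1, the widely expressed lactate carrier (ENSMUSG00000032902, chromosome 3, 104638668 to 104658462, plus strand, GRCm38), had 543 and 449.6 normalised reads in knockouts 1 and 2, against 1723 and 1663 in controls 1 and 2. Each pair of samples lay close together and far from the other. The mean was 496 ± 66.1 in knockouts and 1693 ± 42.2 in controls (SD, n = 2 each), 3.41-fold lower (log2 change -1.77 ± 0.31 SE, limma adjusted p = 0.00312). Means are given with SD and log2 changes with SE throughout. Slc16a3, the lactate exporter typical of glycolytic cells and known to be induced by low oxygen (ENSMUSG00000025161, chromosome 11, 120948480 to 120960868, plus strand), had 73.2 and 69.0 in knockouts, against 419.9 and 193 in controls, 4.31-fold lower (log2 change -1.99 ± 0.45, limma adjusted p = 0.00668). The knockouts agreed closely, while the controls lay 2.17-fold apart, yet the lower control stayed 2.64-fold above the higher knockout.

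Slc16a14, a family member whose substrate is less well known, had 9.04 and 7.67 in knockouts, against 39.1 and 111 in controls, 8.97-fold lower (log2 change -2.84 ± 0.65, limma adjusted p = 0.00683). Those knockout values stand for 10 and 8 reads, so counting error is a large part of them. Without control 2 the log2 change was -2.10 and without control 1 it was -3.58, and both passed the test. Slc16a11, a carrier linked to pyruvate transport, had 38.9 and 50.8 in knockouts, against 159 and 79.1 in controls, 2.66-fold lower (log2 change -1.32 ± 0.49, limma adjusted p = 0.0261). Without control 1 its log2 change was -0.82 and it was not called (limma adjusted p = 0.103).

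The starts of the Slc16a1 and Slc16a3 genes are shown because both carry lactate and fell, and Slc16a3 is known to be induced by low oxygen. Each line gives the 250 bases before and 50 after the start from RefSeq on GRCm38.p6, 5′ to 3′ on the plus strand, for chr3:104638414-104638713 and chr11:120948817-120949116. Capitals mark ACGTG, the core letters that hypoxia-inducible factors bind, on either strand.
Slc16a1: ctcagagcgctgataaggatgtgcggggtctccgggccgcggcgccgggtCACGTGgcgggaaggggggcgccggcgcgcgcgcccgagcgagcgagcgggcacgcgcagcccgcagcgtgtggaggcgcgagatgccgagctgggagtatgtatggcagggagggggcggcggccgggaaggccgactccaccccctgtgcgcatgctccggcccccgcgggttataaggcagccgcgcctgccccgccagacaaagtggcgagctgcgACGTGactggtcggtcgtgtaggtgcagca
Slc16a3: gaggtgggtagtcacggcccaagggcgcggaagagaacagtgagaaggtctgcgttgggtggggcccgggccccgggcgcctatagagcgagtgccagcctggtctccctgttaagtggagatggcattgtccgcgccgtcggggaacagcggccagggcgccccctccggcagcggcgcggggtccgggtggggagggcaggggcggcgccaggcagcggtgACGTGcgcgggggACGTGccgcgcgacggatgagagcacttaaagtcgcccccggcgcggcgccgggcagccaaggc

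Slc16a1 held 2 stretches and Slc16a3 2. The first stretch of Slc16a1, CACGTG, reads the same on both strands and is also the E-box that other factors bind. Of 25 carriers with an entry in that table, 8 held ACGTG in at least 1 promoter, 5 of the 10 that fell and 3 of the 15 that rose. Over all 27025 genes with an entry the share was 21.8%, and over the 812 listed genes with one it was 23.6%, beside 32.0% of the 25 carriers. Shares of listed genes that fell or rose were not counted, so the split by direction has no background and was not tested. A match of letters is a description and not a site.

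The enzymes of sugar and lactate use went the same way. Of 31 such genes looked up, 5 were in the tables and all 5 were lower, where 38.5% of listed genes were. Fbp1, a gluconeogenic fructose bisphosphatase, had 54.2 and 45.1 normalised reads in knockouts, against 485 and 610.1 in controls. Pgk1, phosphoglycerate kinase, had 4107 and 4233 in knockouts, against 10750.0 and 6299 in controls. Car9, the carbonic anhydrase that acidifies the surface of hypoxic cells, had 502 and 413 in knockouts, against 1930.1 and 1541 in controls. The carbonic anhydrases had no common direction: of 16 annotated genes 4 were listed, Car9 and Car2 lower and Car6 and Car8 higher. Emb, embigin, a partner protein that brings lactate carriers to the membrane, went the other way, at 718 and 769 in knockouts and 367 and 183 in controls.

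**Figure D3:**
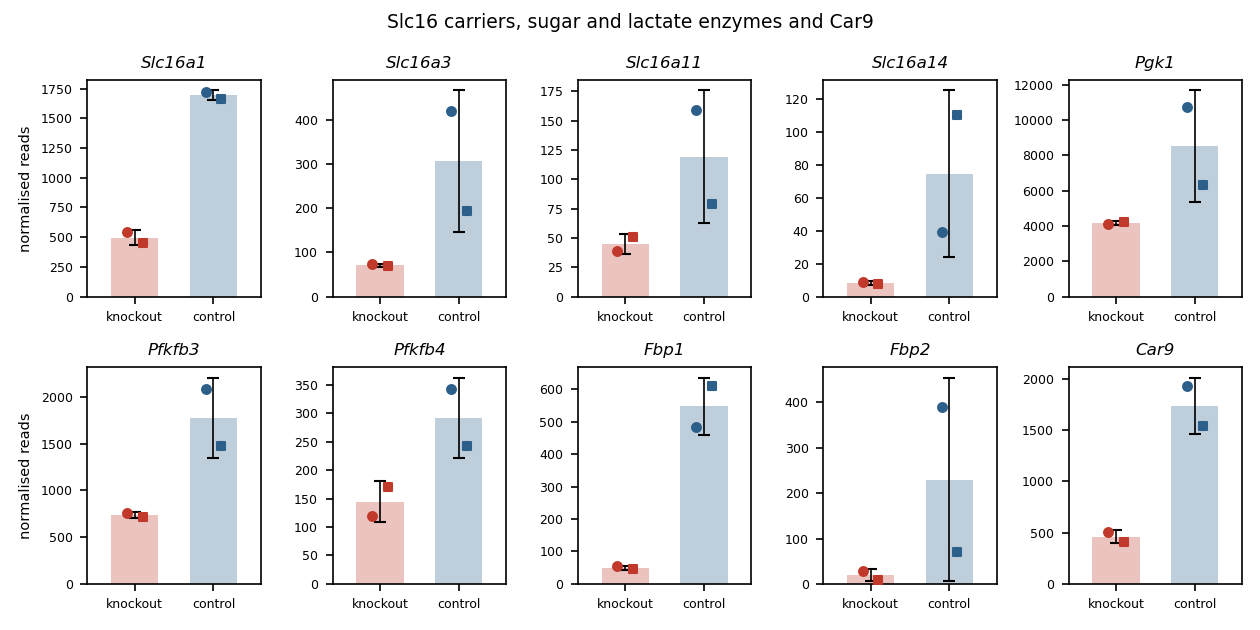
Normalised reads of the 4 listed Slc16 carriers, the 5 listed enzymes of sugar and lactate use and Car9, each panel from 0 with its own scale. Bars are means of 2 samples with SD, circles are replicate 1 and squares replicate 2, and in every panel both knockouts lie below both controls.

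The sugar carriers split. Slc2a4, the glucose carrier that insulin brings to the surface of fat and muscle cells (ENSMUSG00000018566, chromosome 11, 69942539 to 69948188, minus strand), had 322 and 375 normalised reads in knockouts, against 46.1 and 81.3 in controls. It was 5.47-fold higher (log2 change 2.48 ± 0.41, limma adjusted p = 0.00281), with a gap of 3.95-fold between the nearest samples. Slc2a10, a glucose carrier of arteries and of intracellular membranes, had 102 and 86.3 in knockouts, against 228 and 194 in controls, 2.24-fold lower (log2 change -1.16 ± 0.37, limma adjusted p = 0.0154). The other 10 annotated Slc2 genes, the general glucose carrier Slc2a1 among them, were not in the tables.

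Slc2a4 is a gene of fat and muscle, and markers of both tissues moved. Of 14 adipocyte markers 5 were listed and all 5 were higher, where 61.3% of all listed genes were. Their summed levels were 1036 and 2633 in knockouts, against 465 and 658 in controls, and none was at 0. The knockouts differed 2.54-fold in that sum and 1.17-fold in Slc2a4. Of 14 skeletal muscle markers 10 were listed, 9 lower and 1, the tropomyosin Tpm2, higher, where 38.5% of all listed genes were lower. Without Tpm2, the most abundant of them, the muscle sum was 88.6 and 62.3 in knockouts, against 722 and 1095 in controls, with Myh1 at 0 in knockout 1. The part of fat and muscle cells in the level of Slc2a4 was not tested.

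Amino acid carriers went both ways. The tables held 8 of 69 annotated genes of this class, and 4 rose and 4 fell, where 61.3% of all listed genes were higher and 38.5% lower. The fallers carry neutral amino acids or peptides. The risers carry cationic and acidic amino acids, except Slc7a8, a carrier of large neutral ones.

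Slc6a15, a sodium-coupled carrier of branched-chain amino acids and proline known mostly from neurons (ENSMUSG00000019894, chromosome 10, 103367783 to 103419377, plus strand), had 327 and 298 normalised reads in knockouts, against 2415 and 1389.6 in controls. It was 6.09-fold lower (log2 change -2.55 ± 0.36, limma adjusted p = 0.00182), the lowest adjusted p among carriers that fell, and the nearest samples lay 4.25-fold apart. Slc1a4, which exchanges alanine, serine and cysteine, had 546 and 507 in knockouts, against 1229.6 and 1182 in controls, 2.29-fold lower with close replicates in each group (limma adjusted p = 0.00877). Slc15a1, the proton-coupled carrier of small peptides best known from the gut, had 62.3 and 40.3 in knockouts, against 128 and 167 in controls, 2.88-fold lower (log2 change -1.53 ± 0.43, limma adjusted p = 0.0117). Without control 2 its adjusted p was 0.0522.

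Slc1a5, the main glutamine carrier of many tumours, rested on 1 control. It had 567 and 873 in knockouts, against 2489 and 978 in controls, so knockout 2 lay only 1.12-fold below control 2. The 2.41-fold lower mean passed with all samples (log2 change -1.15 ± 0.47, limma adjusted p = 0.0382, the highest of the 33). Without control 1 the log2 change was -0.48 and the adjusted p 0.266.

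Slc7a2, a carrier of arginine, lysine and ornithine (ENSMUSG00000031596, chromosome 8, 40862396 to 40922308, plus strand), had 1829.8 and 2212 normalised reads in knockouts, against 303 and 674 in controls. It was 4.14-fold higher (log2 change 2.15 ± 0.41, limma adjusted p = 0.00419) and among the carriers called under all 4 other scalings. An opposite-strand noncoding gene, Gm26584, covers 6.95% of its exon bases, and the reads of such a stretch cannot be told apart if the counting ignored strand. Macrophages can induce Slc7a2. Of 12 macrophage markers 6 were listed, all 6 higher and none at 0, where 61.3% of all listed genes were higher. The summed levels of the 6 were 35961 and 43072 in knockouts, against 9683 and 16681 in controls, most of it Apoe. Their part in the level of Slc7a2 was not tested.

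The glutamate carriers Slc1a2 and Slc1a3, which clear glutamate around synapses and are made by astrocytes and other cells, were both higher. Slc1a2 had 245 and 262 in knockouts, against 101 and 104 in controls, 2.47-fold higher with tight pairs (limma adjusted p = 0.0104), a call lost with TMM (adjusted p = 0.130). Slc1a3 had 53.3 and 113 in knockouts, against 4.01 and 23.7 in controls, 6.00-fold higher (log2 change 2.82 ± 0.80, limma adjusted p = 0.0119), but the controls lay 5.92-fold apart and stood for 4 and 21 reads. Without control 1 its log2 change was 1.67 and it was not called (limma adjusted p = 0.0810). Slc7a8 had 226 and 241 in knockouts, against 88.2 and 127 in controls, 2.17-fold higher (limma adjusted p = 0.0173). Its log2 change was 0.40 with TMM and 0.046 with RLE, where it was not called.

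Genes of the amino acid stress response gave no common direction. Of 26 looked up, 3 were in the tables: Stc2, stanniocalcin 2, was higher, and Phgdh, the first enzyme of serine synthesis, and Chac1, which degrades glutathione, were lower. Over all listed genes 61.3% were higher and 38.5% lower. Phgdh had 1807 and 1275 normalised reads in knockouts, against 3597 and 2645 in controls. TGATGNAA, the letters of the amino acid response element, searched on both strands, were found in the promoter of 1 of 25 carriers, Slc1a4, and of 4.51% of all 27025 genes with an entry.

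The listed choline and bile acid family carriers, 3 of the 22 annotated genes of their class, were all higher, where 61.3% of all listed genes were. Slc44a5, a choline transporter-like protein (ENSMUSG00000028360, chromosome 3, 153973436 to 154271722, plus strand), had 41.6 and 152 normalised reads in knockouts, 46 and 159 reads, against 0 in both controls. Taking 3 reads, summed over the 2 controls, as the floor, it was at least 60.7-fold higher (limma adjusted p = 0.00169, the lowest of the 33). The knockouts lay 3.67-fold apart. With either knockout left out, the spread of this gene comes from the controls alone, both at 0, so those fits cannot test it. Slc5a7, the high-affinity choline carrier of cholinergic nerve endings (ENSMUSG00000023945, chromosome 17, 54273590 to 54299034, minus strand), had 304 and 386 in knockouts, against 38.1 and 64.4 in controls, 6.73-fold higher (log2 change 2.76 ± 0.41, limma adjusted p = 0.00221). Slc10a5, an orphan of the bile acid carrier family, had 32.5 and 32.6 in knockouts, against 1.00 and 7.91 in controls, 7.31-fold higher (log2 change 2.99 ± 0.85, limma adjusted p = 0.0119). Its control values are 1 and 7 reads, and its log2 change was 1.91 without control 1 and 4.07 without control 2. The protein-coding gene Gm38303, on the same strand, shares 6.83% of its exon bases, where the source of a read is uncertain with or without strand.

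Slc5a7, Slc1a2, Slc1a3 and Slc6a15 are best known from nervous tissue. Among markers of neurons and Schwann cells, Cdh19, a cadherin of Schwann cells, had 961 and 897 normalised reads in knockouts, against 88.2 and 206 in controls. Ngfr, a neurotrophin receptor, had 90.4 and 42.2 in knockouts, against 9.02 and 12.4 in controls. Mal, a myelin and epithelial membrane protein, went the other way, at 309.9 and 469 in knockouts and 643 and 1255 in controls. The neuronal markers Snap25, Syt1, Tubb3 and Rbfox3 were not in the tables. Whether those cells contributed to the carriers was not tested.

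Ion carriers went both ways, also within the Slc12 family, with 2 higher and 1 lower. The tables held 7 of 67 annotated genes of this class, 4 higher and 3 lower, where 61.3% and 38.5% of all listed genes were. Slc12a2, the sodium, potassium and chloride cotransporter that drives fluid secretion in glands, was the most abundant of the listed carriers in every sample, also per length. It had 11397 and 12824 normalised reads in knockouts, against 5006 and 5745 in controls, 2.25-fold higher (log2 change 1.17 ± 0.33, limma adjusted p = 0.0116). Per kilobase of listed gene length its level was 1857 ± 155 in knockouts and 824 ± 80.2 in controls (SD, n = 2 each). The next carrier in knockouts, Slc31a2, stood at 789 ± 55.4 per kilobase, so the SDs of these 2 genes do not meet. The log2 change of Slc12a2 was 0.43 with TMM and 0.077 with RLE, and it was called with neither. The luminal epithelial markers, 7 of 16 listed, were all higher in the same samples, where 61.3% of all listed genes were. Their summed levels were 20764 and 25167 in knockouts, against 4719 and 8139 in controls, and none was at 0. Their part in the level of Slc12a2 was not tested.

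Slc12a4, a potassium and chloride cotransporter used in volume control, had 292 and 252 in knockouts, against 92.2 and 113 in controls, 2.65-fold higher (limma adjusted p = 0.00905), also not called with TMM (adjusted p = 0.0883). The antisense gene Gm16156 covers 8.44% of its exon bases. Slc24a3, an exchanger of sodium for calcium and potassium, had 88.6 and 70.9 in knockouts, against 29.1 and 30.5 in controls (2.68-fold higher, limma adjusted p = 0.0174). Slc24a3 was called with none of the other scalings (limma adjusted p = 0.176 with TMM and 0.0566 with totals).

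Slc12a3, the thiazide-sensitive sodium chloride cotransporter of the kidney, had 10.8 and 5.75 in knockouts, against 98.2 and 23.7 in controls, 7.35-fold lower (log2 change -2.47 ± 0.77, limma adjusted p = 0.0151). The controls lay 4.14-fold apart, and without control 1 the log2 change was -1.47 with an adjusted p of 0.0707. None of 7 kidney tubule markers was in the tables. Slc4a8, which brings sodium and bicarbonate in, had 17.2 and 17.3 in knockouts, against 107 and 55.4 in controls, 4.72-fold lower (log2 change -2.10 ± 0.53, limma adjusted p = 0.00890). Slc4a11, a proton and water pathway best known from the cornea, had 31.6 and 36.4 in knockouts, against 124 and 83.6 in controls, 3.05-fold lower (log2 change -1.56 ± 0.45, limma adjusted p = 0.0126). Both listed Slc4 genes therefore fell, as the listed Slc16 genes did, where 38.5% of all listed genes fell.

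Slc5a5, the iodide carrier of the thyroid and the lactating mammary gland, had 317 and 647 in knockouts, against 154 and 45.2 in controls, 4.83-fold higher (log2 change 2.42 ± 0.60, limma adjusted p = 0.00833). Both groups were wide, with knockouts 2.04-fold and controls 3.42-fold apart. Without control 2 the log2 change was 1.55 and it was not called (limma adjusted p = 0.0708), nor was it with TMM (0.0859). Milk genes moved the opposite way: of 10 markers 4 were listed and all 4 were lower, where 38.5% of all listed genes were. Their sums were 309 and 500.5 in knockouts, against 2415 and 12372 in controls. None of the 4 was at 0.

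Among metal carriers, Slc39a4, the zinc importer of the gut and of some carcinomas, was lower and Slc31a2, a copper carrier of endosomes and lysosomes, higher. Slc39a4 had 228 and 172 normalised reads in knockouts, against 626 and 754 in controls, 3.46-fold lower with close pairs (log2 change -1.79 ± 0.33, limma adjusted p = 0.00383). Slc31a2 had 1525 and 1684 in knockouts, against 552 and 1003 in controls, 2.06-fold higher (log2 change 1.11 ± 0.37, limma adjusted p = 0.0176), the smallest fold of the carriers. Its log2 change was 0.011 with RLE. Of 22 genes of metal storage and uptake, 4 were listed: Tfrc, the transferrin receptor, and Cybrd1, an iron reductase, were lower, and the metal reductases Steap4 and Steap2 higher. The shares over all listed genes were 38.5% lower and 61.3% higher. Atp7b, the copper-exporting ATPase, had 3.61 and 3.83 in knockouts, against 60.1 and 41.8 in controls.

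The Slc35 family, which includes carriers of nucleotide sugars into the Golgi, had 3 of 27 annotated genes in the tables, and their substrates are not well settled. Slc35f3 had 85.8 and 175 in knockouts, against 17.0 and 18.1 in controls, 7.44-fold higher (log2 change 2.74 ± 0.52, limma adjusted p = 0.00396). Its controls agreed closely and its knockouts lay 2.04-fold apart. Slc35d3 had 66.9 and 74.8 in knockouts, against 243 and 339 in controls, 4.10-fold lower (log2 change -2.0 ± 0.38, limma adjusted p = 0.00391). Slc35g1 had 195 and 167 in knockouts, against 96.2 and 70.0 in controls, 2.18-fold higher (log2 change 1.13 ± 0.39, limma adjusted p = 0.0200, and 0.352 with TMM). The summed level of the 3 was 348 and 417 in knockouts, against 356 and 427 in controls.

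Carriers of drugs and organic ions, 3 of 47 annotated, were all higher with the deposited scaling, where 61.3% of all listed genes were. None was called with TMM, where 24.3% of listed genes were called higher. Slco1a5, an organic anion carrier, had 879 and 733 in knockouts, against 218 and 459.8 in controls, 2.38-fold higher (log2 change 1.34 ± 0.41, limma adjusted p = 0.0140). It has close relatives in a gene cluster, and how reads shared between such copies were counted is not given in the sources used here. Slc22a18, an imprinted gene of the organic cation family, had 185 and 219.5 in knockouts, against 104 and 71.2 in controls, 2.31-fold higher (log2 change 1.22 ± 0.39, limma adjusted p = 0.0159). Slc22a15 had 154 and 114 in knockouts, against 48.1 and 70.0 in controls, 2.27-fold higher (log2 change 1.18 ± 0.43, limma adjusted p = 0.0244). It lost its call without control 1 (limma adjusted p = 0.0715). Slc46a3, a lysosomal carrier, was the single listed gene of the vitamin and nucleoside class, at 435 and 481 in knockouts and 163 and 215 in controls (2.42-fold higher, log2 change 1.28 ± 0.34, limma adjusted p = 0.00956, and 0.103 with TMM).

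**Figure D4:**
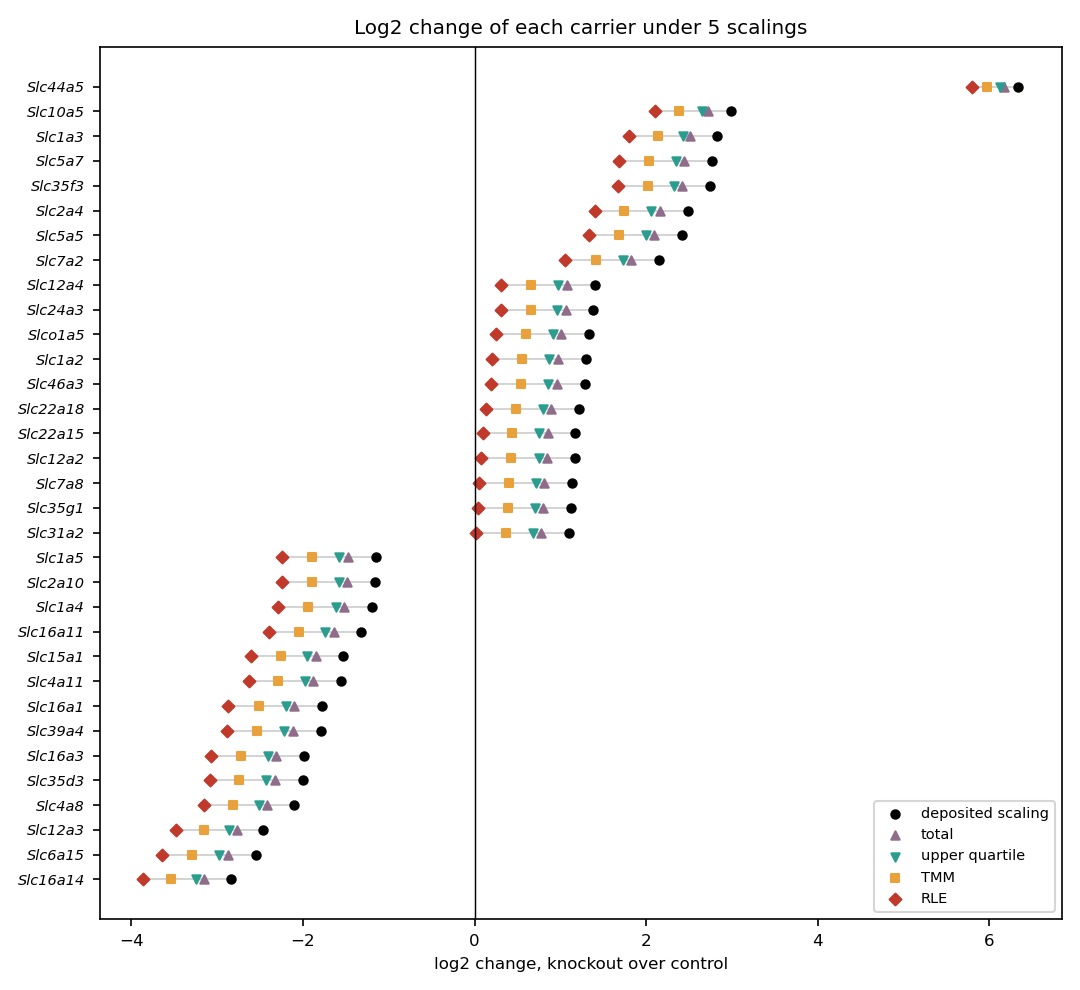
Log2 change of each carrier in knockout over control tumours with the deposited size factors and with total, upper quartile, TMM and RLE factors. Each carrier keeps its side of 0, and Slc31a2 comes nearest to it, at 0.011 with RLE.

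Classes without a listed member were the mitochondrial carriers, with 47 annotated genes, and the vesicular transmitter carriers, with 12. Pumps move ions with ATP and set the gradients that many carriers use. Of 48 annotated P-type ATPases and their subunits 6 were listed, 2 higher and 4 lower, and of 26 V-type ATPase subunits 1, Atp6v1c2, which was lower. Of 46 ABC transporters 1 was listed, the peroxisomal Abcd2, which was higher, and of 11 aquaporins 1, Aqp9, which was lower. These counts stand beside 61.3% of all listed genes higher and 38.5% lower.

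The miR-9 locus gives rise to a mature RNA from each arm of its hairpin, shown here with bases 2 to 8, the seed that pairs with messenger RNAs, in capitals, from RefSeq on GRCm38.p6. The same mature sequences come from Mir9-1, Mir9-2 and Mir9-3 on chromosomes 3, 13 and 7.
miR-9-5p: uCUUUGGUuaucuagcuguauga
miR-9-3p: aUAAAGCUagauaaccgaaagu

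Matches to the 5p seed were in a smaller share of carriers than of listed genes, and matches to the 3p seed in a similar share; neither difference was tested. The letters ACCAAAG, the complement of the 5p seed, were looked for on the transcript strand of the longest 3′ UTR of each gene in GENCODE M21 (GRCm38). They occurred in 2 of 33 carriers (6.06%), both of them higher in knockouts, and in 15.0% of the 1039 listed genes with a 3′ UTR. Among genes that rose, 10.5% of carriers and 15.4% of listed genes held them. None of the 14 carriers that fell held them, where 14.3% of listed genes that fell did. AGCTTTA, the complement of the 3p seed, occurred in 5 of 33 carriers (15.2%), 4 higher and 1 lower, and in 12.5% of listed genes. It was in 21.1% of carriers and 14.8% of listed genes that rose, and in 7.14% and 8.70% of those that fell. The median 3′ UTR was 1406 bases in carriers and 1125 in all listed genes.

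The matches in the strongest riser, Slc44a5, and in Slc31a2, Slc5a7 and the faller Slc16a14 are printed below, on the transcript strand, with the match in capitals. They lie at chr3:154270198-154270221 (plus), chr4:62297361-62297384 and chr4:62298034-62298057 (both plus), chr17:54276317-54276340 (minus) and chr1:84906999-84907022 (minus).
Slc44a5, 5p: tgcttttgcatcttatACCAAAGc
Slc31a2, 5p, first: taagcaagtagctgtgACCAAAGg
Slc31a2, 5p, second: gtgcaatagcaatcaaACCAAAGc
Slc5a7, 3p: cgagcatgaagccaaaAGCTTTAt
Slc16a14, 3p: aaatgcctgtaatcccAGCTTTAg

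None of these 5 matches is followed by an A, the base that often extends a seed match. The other carriers with a 3p match were Slc1a2, Slc10a5 and Slc12a2, all higher. Slc6a15, Slc2a4, Slc35f3 and Slc7a2 held neither set of letters, which says only that these letters are not in those windows.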

How the data were processed

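Per the labels' protocols, total RNA of the tumours went into TruSeq RNA libraries for a NovaSeq instrument. Per the submitters' processing notes, Bowtie 0.12.2 and the builds hg38, GRCm38 and mm10 were used, with no role given. For the counter, strand setting, annotation release and listing criterion, nothing is given in the sources used here. The deposited signal values are gene read counts that the authors divided by 1 size factor per sample: dividing by a sample's smallest value above 0 left whole numbers for 100% of its genes, within 1e-06 reads. In control 1 that value is close to 1, so its recovered reads are less sure. Relative depth spanned a ratio of 1.25, and the floor of 3 reads covers counting error alone.

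Genotype was the single term of a limma 3.58.1 trend fit (R 4.3.3) to log2(value + 1), with p-values adjusted over 1142 genes. A filter, a mean of 0.5 or more, removed none, so all 33 carriers passed. Log2 changes understate those of low genes. The script was tested on simulated counts. The plan named limma for normalised values and edgeR for raw counts; edgeR 4.0.16, DESeq2 1.42.0 and limma-voom on recovered reads were alternatives. Classes follow family numbers with single-gene exceptions. Full statistics went to up to 4 members of each class with the largest changes, the 5 most abundant, members at 0 and those that missed the threshold or changed sign, 28 in all; Slc1a2, Slc1a4, Slc7a8, Slc12a4 and Slc24a3 fall outside that rule and are given as well. For Slc44a5 no fitted log2 change is given, since against 0 it depends on the pseudocount. Members, classes and gene lists were chosen with earlier results of these data known. Of the members, 32 had the coordinates of GENCODE M21. Python 3.11.15 drew figures. One marker result is not reported here.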

Additional observations from a re-analysis of the deposited data

How the results depend on the processing

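With all samples and the deposited scaling, 19 carriers were called higher and 14 lower, with a median log2 change of 1.13. No carrier changed sign in any alternative run, though some that rose were too near 0 with RLE to give a direction. Pseudocounts of 0.1 and 5, no filter, a minimum mean of 5, edgeR, DESeq2 and limma-voom on recovered reads called the same 19 and 14. So did the replicate block, with a median of 1.13; the numbers were not shown to pair the samples, since deviations of same-numbered samples correlated at r = 0.043 across 1142 genes. Fewer carriers were called higher with TMM (5), RLE (5) and upper quartile (12) factors from the listed genes, while 14 stayed lower under each. The median was 0.40 with TMM, 0.046 with RLE, 0.71 with the upper quartile and 0.81 with totals. These factors lowered the log2 change of every carrier, by less where values are near 0, so the 14 kept lower calls do not test the fallers. At a threshold of 0.01, 8 were higher and 8 lower, against 33.9% and 17.3% of listed genes. Leaving out 1 sample gave 1 to 18 higher, 0 to 13 lower and medians of 0.88 to 1.27. Without knockout 1 limma called 1 carrier higher and 0 lower (7 and 6 at an unadjusted p under 0.05, against 23.7% and 15.9% of listed genes), and without knockout 2 also 1 and 0 (5 and 4, against 20.8% and 13.6%). The lone knockout is then assumed to vary like the controls, which lie further apart. Levels of a few reads limit Slc10a5, Slc1a3, Slc12a3 and Slc16a14.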
